A study of Mus musculus with 3 samples.

Results

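Semaphorins, plexins, neuropilins, slits, robos, netrins and netrin receptors are the ligands and receptors of axon guidance, and tumour cells use the same genes. The 45 members described here were taken by gene symbol from the 34591 rows of the count table, with earlier results of these data known. They are 20 semaphorins, 9 plexins, 2 neuropilins, 3 slits, 4 robos, 2 netrins, and 5 netrin receptors of the Unc5 and Dcc type. That makes 25 ligands and 20 receptors. The cells were 4T1, an established mouse mammary carcinoma line grown in RPMI with serum, over-expressing WISP2, a secreted matricellular protein. All 3 libraries carry this genotype, so they form 1 group; the empty-vector controls named by the design text were not analysed here, and no effect of WISP2 was estimated. The labels' protocol describes viral transduction and puromycin selection for Wisp1 constructs and gives no separate account of the WISP2 construct. The labels do not name separate cultures for the libraries, so every p-value below measures only the spread between these samples, which may be technical.

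Depth was 17630755 gene-assigned counts for library C1, 67028365 for C2 and 47577315 for C3. A gene's level is given as CPM, its counts scaled to the total of the library, and levels of different genes are compared per kilobase of annotated exon (CPM per kb). Wisp2 itself stood at 429, 384 and 454 CPM. The labelled cell type had its markers: all 6 epithelial genes checked were above 1 CPM in every library, with a summed level of 3499, 3531 and 3821 CPM in C1, C2 and C3. Markers of other cells differed by list. Endothelial markers were low, at 0.454, 0.194 and 0.315 CPM summed over 7 genes. Of 7 lymphocyte genes 6 had 0 counts. The 8 macrophage genes summed to 20.1, 9.83 and 10.2 CPM, none of them was at 0 in all libraries, and 7 of the 8 were highest in C1. Of the 9 neuronal and glial genes 4 had no count (Rbfox3, Snap25, Syt1 and Sox10), whereas Mtap2 (43.9 ± 1.98 CPM, SD, n = 3) and Mbp (32.7 ± 2.80 CPM) were detected, and the list summed to 75.2, 81.8 and 78.8 CPM. The 8 fibroblast genes summed to 19.7, 21.2 and 19.1 CPM, nearly all of it Pdgfra (18.3 ± 1.03 CPM), with Lum and Thy1 at 0.

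Semaphorins share a large extracellular sema domain. Those of class 3 are secreted and mostly reach plexins through the coreceptors Nrp1 and Nrp2, while those of classes 4, 5, 6 and 7 are bound to the membrane and contact plexins directly. Plexins act on the cytoskeleton through an intracellular GTPase-activating domain, and B-type plexins also recruit guanine nucleotide exchange factors. Slits repel through Robo receptors, and netrins attract through Dcc or neogenin and repel through Unc5 proteins, which are also studied as dependence receptors that signal death when no ligand is bound.

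Of the 45 members 24 were at 1 CPM or more in every library (53.3%), and 4 had no count in any library. Over all rows of the table these shares were 33.8% and 45.7%, and 62.2% of the rows with any count reached 1 CPM in every library. The members together took 0.148%, 0.148% and 0.160% of counts in C1, C2 and C3. On the CPM scale 4 members exceeded 100 CPM on average, all of them receptors: Plxnb2, Nrp2, Unc5b and Plxna1. A further 11 lay between 10 and 100 CPM, and 9 detected members lay below 10 CPM. The median log2(CPM + 1) was 1.46 over all 45 members. Over the 41 members with a count it was 1.7, against 3.35 over the 18797 rows of the table with a count. Per kilobase, 6 of the 24 detected members were above the median of all detected genes, which was 8.31 CPM per kb. In these bulk libraries a low level in every cell cannot be told apart from expression in few cells.

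**Figure D1:**
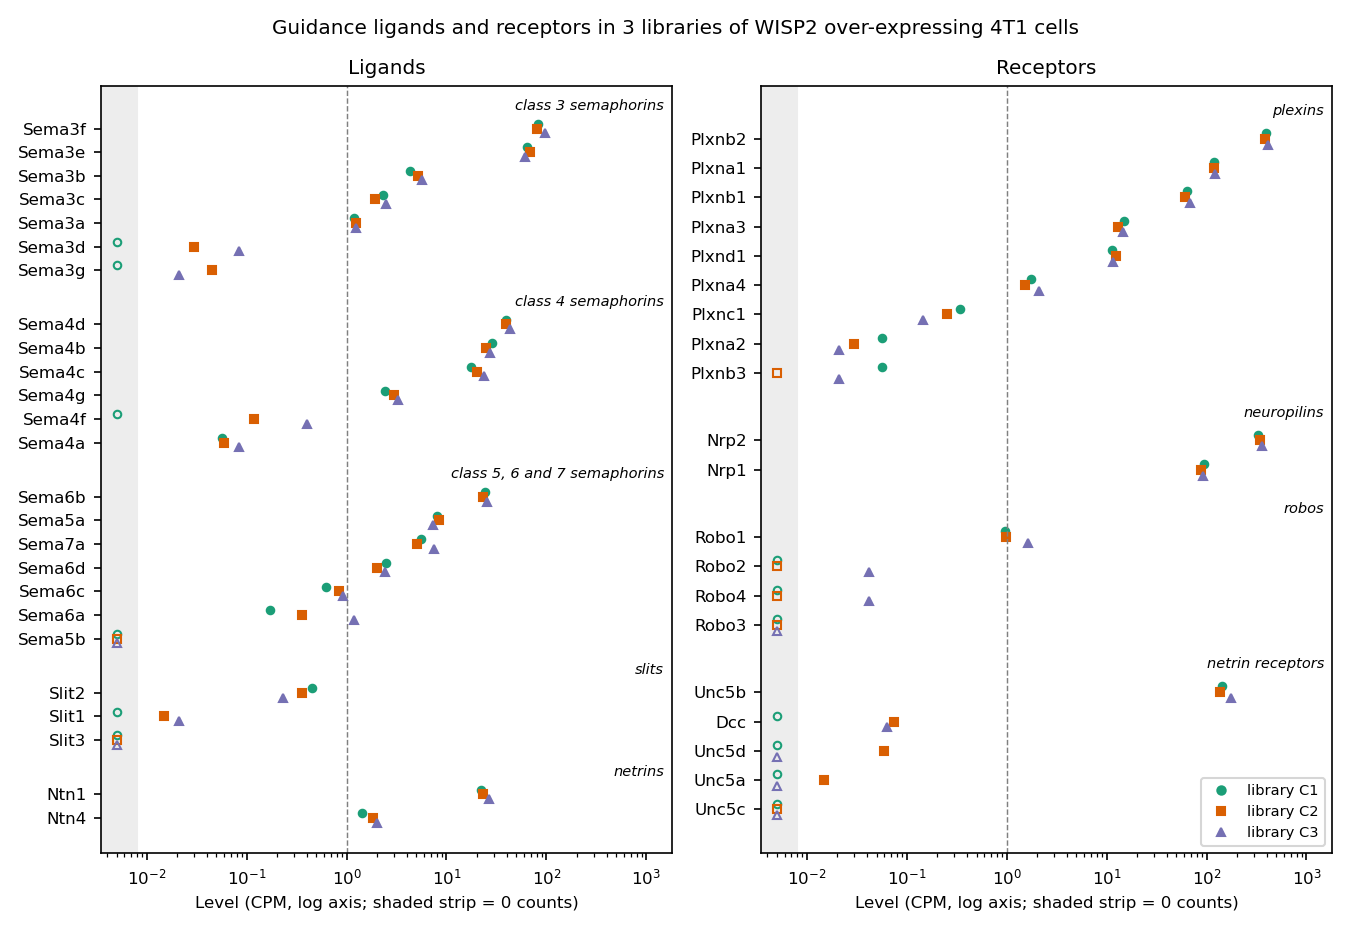
Level of each of the 45 members in CPM (log axis) in the 3 libraries, with ligands on the left and receptors on the right; open symbols in the shaded strip are 0 counts and the dashed line is 1 CPM. The receptors Plxnb2, Nrp2, Unc5b and Plxna1 lie above 100 CPM in every library. The slits, and the robos other than Robo1, lie left of the dashed line in every library, as do several members of other families.

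Among the plexins, Plxnb2, the B-type receptor of class 4 semaphorins, was the most abundant, and it was the most abundant of all members per kilobase. Its levels in C1, C2 and C3 were 393, 386 and 408 CPM. Plxna1, a signalling partner of the neuropilins, stood at 118, 119.7 and 121 CPM. Plxnb1, the receptor of Sema4d, stood at 63.2, 60.4 and 69.0 CPM. Each of these genes covered a narrow range, and the 3 ranges did not overlap. Plxna3, another A-type plexin, gave 14.8, 13.1 and 14.6 CPM. Plxnd1, which binds Sema3e without a neuropilin, gave 11.3, 12.3 and 11.5 CPM. Plxna4 was close to the detection line at 1.76, 1.54 and 2.12 CPM. The last 3 plexins were below it: Plxnc1, the receptor of Sema7a, had 6, 17 and 7 counts in C1, C2 and C3, Plxna2 had 1, 2 and 1, and Plxnb3 had 1, 0 and 1. Plxnc1 is also a leukocyte gene. Its level was 0.340, 0.254 and 0.147 CPM in C1, C2 and C3, an order that rests on few counts. The exact binomial intervals overlapped, at 0.125 to 0.741, 0.148 to 0.406 and 0.0592 to 0.303 CPM. In a Poisson dispersion test run without the low-count filter Plxnc1 did not vary beyond counting noise (adjusted p = 0.485). Most macrophage markers were highest in C1, and their part in the Plxnc1 counts was not tested.

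Per kilobase Plxnb2 stood at 51.3 ± 1.49 CPM per kb (SD, n = 3), above 90.1% of the detected genes, and Plxna1 at 13.2 ± 0.157. Plxnb2 took 68.6% of the summed plexin level per kilobase, and Plxnb2, Plxna1 and Plxnb1 together took 95.2%. Within libraries Plxnb2 exceeded Plxnb1 by 2.94 ± 0.06 on the log2 scale (7.67-fold) and Plxna1 by 1.95 ± 0.03 (3.87-fold). Plxna1 exceeded its paralog Plxna3 by 2.88 ± 0.10 on the log2 scale (7.37-fold per kilobase). Against Plxna2, with 4 counts in all, the ratio of summed counts was 3971 (95% exact binomial interval 1551 to 14575), before any length correction. Reads of such paralogs could be shared where their sequence is alike, and how the counting treated them is not known.

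Both neuropilins, the coreceptors of class 3 semaphorins and of VEGF, were well detected. Nrp2, which prefers Sema3f, stood at 329.9, 345 and 361 CPM in C1, C2 and C3. Nrp1, which prefers Sema3a, stood at 93.8, 89.1 and 92.6 CPM. Nrp2 was the higher in every library, by 3.11-fold per kilobase (log2 ratio of Nrp1 to Nrp2 -1.64 ± 0.08), or by 2.04-fold when the longest transcript of each gene was used for the length. Per kilobase Nrp2 ranked second among all members, at 29.2 ± 1.32 CPM per kb.

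The class 3 semaphorins were led by Sema3f and Sema3e. Sema3f, the Nrp2 ligand, stood at 82.6, 81.0 and 97.9 CPM, with C3 the highest. Sema3e, the ligand of Plxnd1, stood at 63.8, 69.2 and 60.7 CPM, with C3 the lowest. Together they took 94.2% of the summed class 3 level per kilobase, and Sema3f alone 66.6%. The others that were detected were Sema3b (4.31, 5.13 and 5.63 CPM), Sema3c (2.33, 1.94 and 2.48 CPM) and Sema3a, the archetypal collapsing factor (1.19, 1.24 and 1.24 CPM). Sema3d and Sema3g had 6 and 4 counts over the 3 libraries.

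Class 4 semaphorins were spread more evenly over their members. Sema4d, which binds Plxnb1, stood at 39.5, 39.8 and 43.0 CPM. Sema4b stood at 28.3, 24.7 and 27.3 CPM, and Sema4c, a ligand of Plxnb2, at 17.8, 20.1 and 23.5 CPM. Per kilobase these 3 took 97.5% of the class 4 level, with 35.7% for Sema4d. Sema4b and Sema4c could not be ranked: their log2 ratio per kilobase was 0.10 ± 0.24 and Sema4b was the higher in 2 of 3 libraries. Sema4g, another Plxnb2 ligand, gave 2.44, 2.97 and 3.28 CPM. Sema4f had 0, 8 and 19 counts and Sema4a had 1, 4 and 4.

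Of the remaining membrane-bound semaphorins Sema6b was the highest, at 24.2, 23.4 and 25.3 CPM in the 3 libraries, and took 69.7% of the summed level of classes 5, 6 and 7 per kilobase. Sema5a gave 8.0, 8.35 and 7.38 CPM, the GPI-anchored Sema7a 5.50, 5.10 and 7.46 CPM, and Sema6d 2.50, 2.00 and 2.44 CPM. Sema6c stayed just under 1 CPM everywhere (0.624, 0.835 and 0.925 CPM), and Sema5b had no count, which allows up to 0.170, 0.0448 and 0.0631 CPM. Sema6a was uneven: it had 3, 24 and 57 counts, or 0.170, 0.358 and 1.2 CPM.

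Slits and robos had few counts. Slit2 had 8, 24 and 11 counts (0.454, 0.358 and 0.231 CPM), Slit1 had 2 in all and Slit3 none. Of the receptors Robo1 stood at 0.964, 0.985 and 1.62 CPM and passed 1 CPM in C3 only; Robo2 and Robo4 had 2 counts each, all in C3, and Robo3 had none. Robo4 is an endothelial gene, and the endothelial markers were likewise at a few counts. No slit or robo reached 1 CPM in all 3 libraries, although Robo1 reached 0.5 CPM in each and its 160 counts were close to the 163 of Sema3a.

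Within the 45 members, both netrins and 1 of the 5 netrin receptors were detected. Ntn1, the classical secreted netrin, stood at 22.0, 23.4 and 26.5 CPM, and the basement membrane netrin Ntn4 at 1.42, 1.82 and 2.04 CPM. Unc5b was far higher, at 143, 137 and 176 CPM, with C3 above both other libraries. It took over 99.9% of the summed level of the 5 netrin receptors per kilobase. Dcc had 0, 5 and 3 counts, Unc5d had 4 and Unc5a 1 in all, and Unc5c had none. Neogenin (Neo1), a netrin receptor outside the 45 members, stood at 159, 161 and 165 CPM, and at 18.6 ± 0.307 CPM per kb against 24.3 ± 3.33 for Unc5b.

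A CpG-rich window before the start site was found both for abundant members and for members with 0 counts. RefSeq promoter windows (build GRCm38.p6) were matched by symbol for 36 of the 45 members, and the 250 bases before each start are considered here. The windows below, chosen after the levels were seen, show a netrin receptor that was abundant and one with 0 counts, an abundant coreceptor and a ligand with 0 counts; capitals mark CpG dinucleotides.
Unc5b, chr10:60831582-60831831, minus strand: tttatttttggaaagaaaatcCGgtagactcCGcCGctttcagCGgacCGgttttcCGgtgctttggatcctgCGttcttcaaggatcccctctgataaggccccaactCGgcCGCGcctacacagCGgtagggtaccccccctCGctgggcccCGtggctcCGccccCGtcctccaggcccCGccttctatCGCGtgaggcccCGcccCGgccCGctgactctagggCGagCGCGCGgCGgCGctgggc
Unc5c, chr3:141465314-141465563, plus strand: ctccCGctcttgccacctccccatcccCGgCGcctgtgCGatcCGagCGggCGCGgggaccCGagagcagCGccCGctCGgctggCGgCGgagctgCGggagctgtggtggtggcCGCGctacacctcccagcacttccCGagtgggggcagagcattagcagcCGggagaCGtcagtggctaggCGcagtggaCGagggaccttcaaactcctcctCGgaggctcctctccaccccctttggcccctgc
Nrp2, chr1:62703067-62703316, plus strand: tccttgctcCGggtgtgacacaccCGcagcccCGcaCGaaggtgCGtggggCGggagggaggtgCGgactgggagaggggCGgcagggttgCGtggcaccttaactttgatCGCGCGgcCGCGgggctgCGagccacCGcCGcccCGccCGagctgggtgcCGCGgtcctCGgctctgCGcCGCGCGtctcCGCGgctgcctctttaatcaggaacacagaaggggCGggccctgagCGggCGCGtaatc
Slit3, chr11:35121206-35121455, plus strand: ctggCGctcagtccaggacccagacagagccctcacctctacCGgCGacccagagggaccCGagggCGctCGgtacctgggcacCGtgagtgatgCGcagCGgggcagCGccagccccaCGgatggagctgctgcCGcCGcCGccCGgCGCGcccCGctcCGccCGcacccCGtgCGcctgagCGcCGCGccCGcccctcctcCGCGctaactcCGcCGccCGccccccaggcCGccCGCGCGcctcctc
Unc5b, with 20113 counts over the libraries, has 27 CpG in this window, and Unc5c, with 0 counts, has 23. Nrp2, with 46137 counts, has 32 and Slit3, with 0 counts, has 35.

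Over the matched members, the 19 detected members had a median of 20 CpG (range 2 to 39) and the 17 others a median of 14 (range 2 to 35). For comparison, the median was 18 over 7870 detected genes of the table with a window and 4 over 8493 that were not detected. Windows with 10 CpG or more were found for 12 of the 17 members not detected (70.6%), against 26.3% of all such genes, and for 15 of the 19 detected members (78.9%), against 82.9%. The GC box GGGCGG, searched on both strands, occurred in 18 of 19 detected members and 9 of 17 others, against 67.0% of detected and 27% of undetected genes of the table. This motif contains a CpG, so the counts overlap. For genes with several RefSeq starts the highest count was taken. Sema3f, Sema3b, Plxna1, Plxna4, Ntn1, Slit1, Sema6a, Unc5d and Dcc were not matched.

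**Figure D2:**
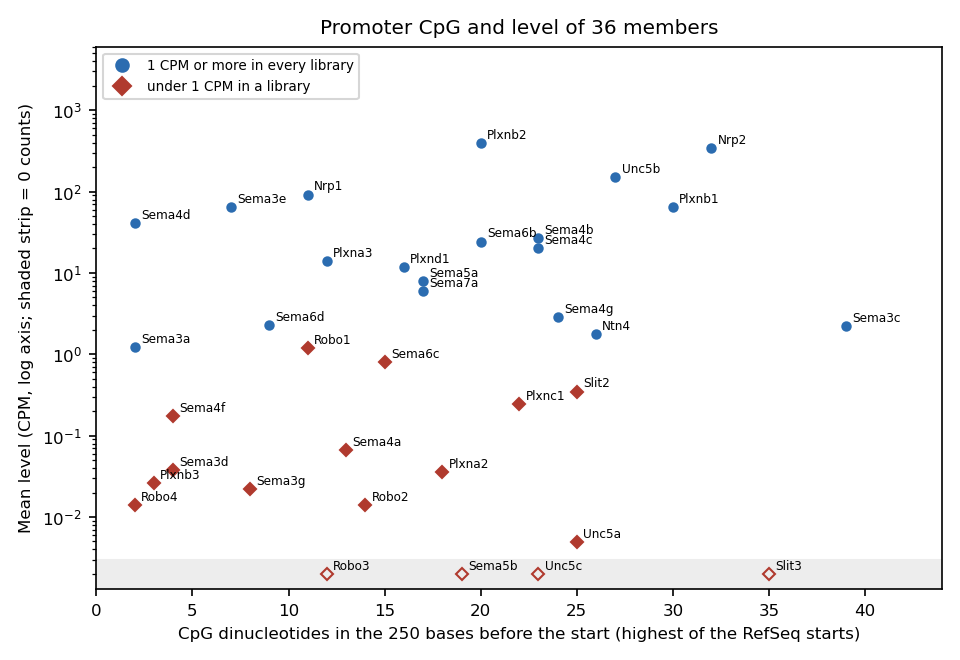
CpG dinucleotides in the 250 bases before the RefSeq start (horizontal) and mean level in CPM (vertical, log axis) for 36 members; circles were detected in every library, diamonds were not, and open diamonds in the shaded strip had 0 counts. Slit3 and Unc5c sit at the bottom with 35 and 23 CpG, beside Nrp2 and Unc5b at the top with 32 and 27.

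Ligands and receptors were then compared within each library as summed CPM per kb. In each of the 3 systems the receptors were higher than the ligands in 3 of 3 libraries; no test is given, since the smallest p an exact two-sided sign-flip test can reach with 3 libraries is 0.25. Semaphorins summed to 47.0, 47.1 and 52.6 CPM per kb in C1, C2 and C3. Plexins and neuropilins summed to 112, 111 and 117. The receptors were 2.32-fold higher (log2 ratio of ligands to receptors -1.21 ± 0.05), or 3.56-fold higher without division by length. This sum counts the neuropilin coreceptors beside the plexins. On average Plxnb2 alone gave 51.3 and the neuropilins 38.5 of its 113 CPM per kb. For netrins the sums were 3.88, 4.21 and 4.77 CPM per kb against 22.9, 22.0 and 28.1 for the Unc5 and Dcc receptors. That was a 5.67-fold excess of receptors (log2 -2.50 ± 0.10). For slits and robos the sums were at most 0.0178 and 0.108 CPM per kb, from 45 and 164 counts, and their ratio (log2 -2.22 ± 0.77) rests on Robo1 and Slit2.

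**Figure D3:**
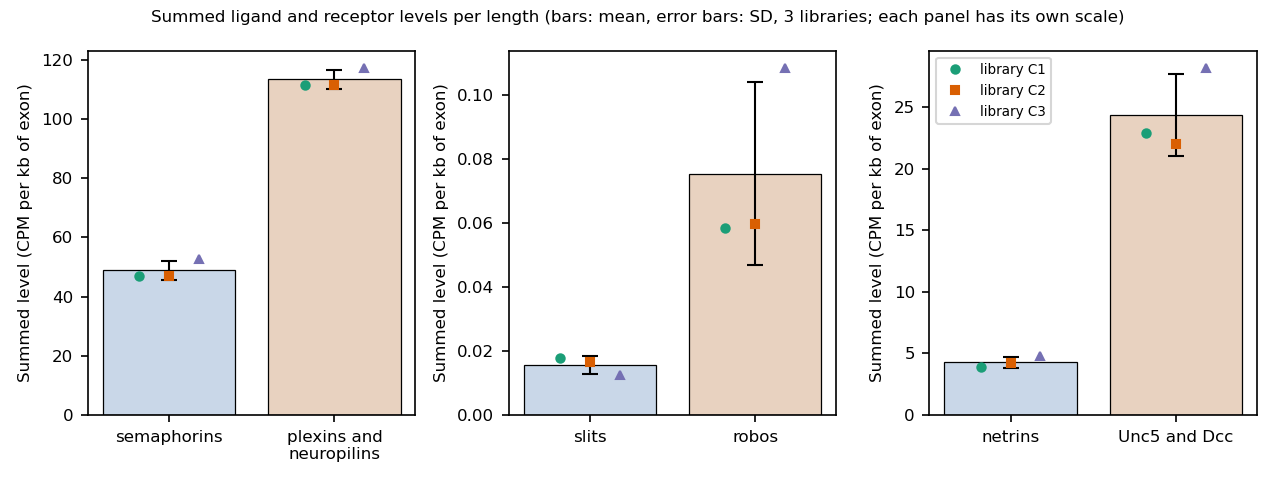
Summed level of ligands and receptors in CPM per kb of exon for the semaphorin, slit and netrin systems; bars are means of 3 libraries, error bars are SD, points are libraries, and each panel has its own vertical scale. Receptors are above ligands in every panel, and the slit and robo sums lie about or below 0.108 CPM per kb.

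Known partners and paralogs were compared pair by pair. Of 34 pairs of partners or paralogs, 26 had enough counts for a ratio within each library, and 25 of these had the same direction in 3 of 3 libraries with a mean larger than its SD. The choice of length moved 21 of the 26 ratios by over 1.5 times, so their sizes are approximate, but 24 of the 25 kept their direction under every length used. Sema3f lay 1.74-fold below Nrp2 per kilobase (log2 -0.80 ± 0.10, or 3.97-fold below without length). Sema3e was the clearest ligand above its receptor, 4.33-fold above Plxnd1 (log2 2.12 ± 0.05, or 13.7-fold by coding length). Sema6b was above Plxna4 by 5.58 ± 0.18 on the log2 scale and Sema7a above Plxnc1 by 5.93 ± 0.87. These receptors had 235 and 30 counts in all.

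Several ligands lay below a receptor. Sema4d was 9.66-fold below Plxnb2 (log2 -3.27 ± 0.03, or 4.54-fold by coding length), and Sema4c 11.6-fold below it (log2 -3.53 ± 0.17). Sema4d and Plxnb1 were close: the log2 ratio was -0.33 ± 0.04 by exon length but 0.29 by the longest transcript and 0.65 by coding length, so their order is not settled. Sema3a was 105-fold below Nrp1 and 148-fold below Plxna1, or 62.0-fold and 39.4-fold by coding length. Ntn1 was 6.35-fold below Unc5b (log2 -2.67 ± 0.09) and 4.88-fold below Neo1, or 4.05-fold and 2.74-fold by coding length. Against Dcc, Ntn1 had 402 times the summed counts (95% exact binomial interval 204 to 932), before any length correction. Other ligands also outnumbered a receptor of few counts, again by summed counts without length. Sema5a was 526 times Plxnb3 (145 to 4349), Sema6a 21 times Plxna2 (7.90 to 78.9) and Slit2 21.5 times Robo2 (5.6 to 183). Per kilobase Ntn1 to Dcc was 843, Sema5a to Plxnb3 183, Sema6a to Plxna2 41.1 and Slit2 to Robo2 14.4. These intervals cover counting error only and not the spread between libraries, and Sema6a had 3, 24 and 57 counts in C1, C2 and C3. Sema7a was 164-fold below Itgb1, the integrin chain that is its other receptor.

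**Figure D4:**
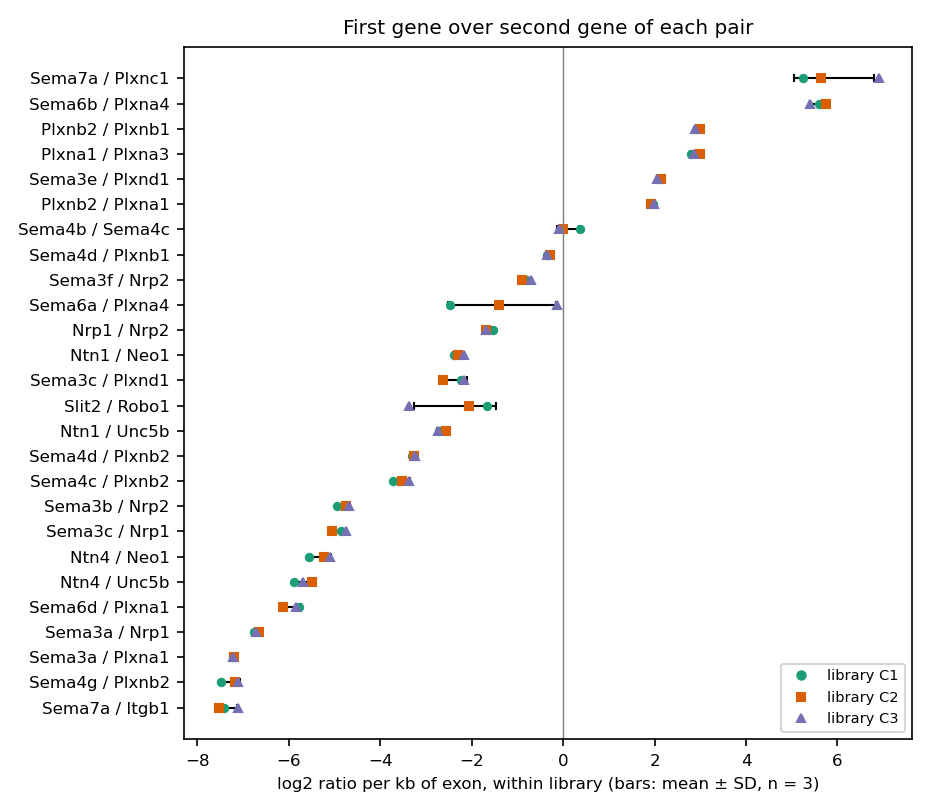
Log2 ratio of the first gene to the second, per kb of exon, for the 26 pairs with enough counts; black bars are mean ± SD over 3 libraries and points are libraries. Only Sema4b and Sema4c scatter on both sides of 0, and Sema3e, Sema6b and Sema7a lie above the plexins they bind.

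When the detected members were ranked per kilobase of exon, the order Plxnb2, Nrp2, Unc5b, Sema3f, Plxna1, Nrp1 and Sema3e was the same in every library. The libraries share the same exon lengths, so their agreement does not test the choice of length. In mean CPM, without length, Plxna1 (119.8) and Nrp1 (91.8) lay above Sema3f (87.2). Of the 23 neighbouring pairs in the full order 17 kept their order in 3 of 3 libraries. The 6 that did not were Sema3e and Plxnb1, Sema4b and Sema4c, Sema7a and Plxna3, Plxna3 and Plxnd1, Ntn4 and Sema5a, and Sema4g and Sema3c.

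The spread between libraries was then tested for the 27 members that passed the low-count filter. In a Poisson dispersion test over all 13026 genes that passed, with Benjamini-Hochberg adjustment, 12 of the 27 members (44.4%) varied beyond counting noise at 0.05, against 39.3% of all genes tested. Among genes of 10 CPM or more 10 of 15 members were called against 49.3% of all genes, and among lower genes 2 of 12 against 14.8%. The called members were Nrp2, Ntn1, Plxnb1, Plxnb2, Robo1, Sema3e, Sema3f, Sema4b, Sema4c, Sema4d, Sema7a and Unc5b. Their differences were small: none reached 2-fold between the highest and the lowest library, and 6 of 12 reached 1.2-fold. Nrp1 and Plxna1 were not called (adjusted p = 0.0958 and 0.598 in the Poisson dispersion test), and Plxna1 differed by 1.02-fold between its extremes.

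C3 was the highest library for 10 of the 12 called members and the lowest for 1, Sema3e. Of all 5118 called genes 41.1% were highest in C3 and 37.8% lowest. Unc5b deviated most by this test, with 176 CPM in C3 against 143 and 137, a 1.28-fold range (adjusted p = 6.09e-62 in the Poisson dispersion test). Sema7a covered a 1.46-fold range (adjusted p = 9.16e-06), Sema4c a 1.33-fold range (9.90e-06), Sema3f a 1.21-fold range (8.32e-21) and Robo1 a 1.68-fold range (0.0173). Without C3 1 of 28 members (Nrp2) was called, beside 1667 of 12970 genes. Without C2 the test called 6 of 26 members and 1761 of 12774 genes, and without C1 it called 13 of 28 members and 4908 of 13337 genes. In that Poisson test the call for Unc5b was lost without C3 (adjusted p = 0.239), and the call for Robo1 without C3 (0.980) or without C2 (0.195). Against genes of similar level, edgeR's quasi-likelihood F test called none of the 27 members, with 4 at an unadjusted p under 0.05 (Unc5b, Sema3f, Sema7a and Sema4c). Over all genes that test called 9 (0.0691%), and 5.15% had an unadjusted p under 0.05. Unc5b had the smallest adjusted p among members (0.395 in edgeR's F test; 0.00973 to 0.996 over the alternatives). On the log2 CPM scale the SD between libraries was largest for Sema7a (0.290), Ntn4 (0.268), Plxna4 (0.234), Sema4g (0.217) and Sema4c (0.204) among the detected members. Without the low-count filter the F test called 171 of 18797 genes, among them Unc5b (adjusted p = 0.00973) and Sema6a (0.00269), a gene the filter had removed.

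Over all tested genes the deviation of C3 also differed with GC content. When the tested genes were placed in 5 equal groups by the GC content of their longest transcript, the median deviation of C3 from the mean of the libraries ran from -0.04 on the log2 scale in the lowest group to 0.05 in the highest. The highest group held 14 of the 27 tested members and the next group 3, called or not. Of the 10 called members that were highest in C3, 8 lay in these upper 2 groups, which held most of the tested members to begin with. Whether the calls go with GC content was not tested. The matching share over all called genes is not given here. The deviation of C3 exceeded the median of its group by 0.48 for Robo1, 0.28 for Sema7a, 0.17 for Unc5b, 0.16 for Sema4c and 0.13 for Sema3f, while Plxnb2 lay 0.00 from it. All 6 epithelial markers were called, and 5 of them were highest in C3. Over all tested genes 39.3% were called, or 49.3% at a mean of 10 CPM or more. Of all called genes 41.1% were highest in C3. The part of these shifts in the members' spread was not tested beyond these values.

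**Figure D5:**
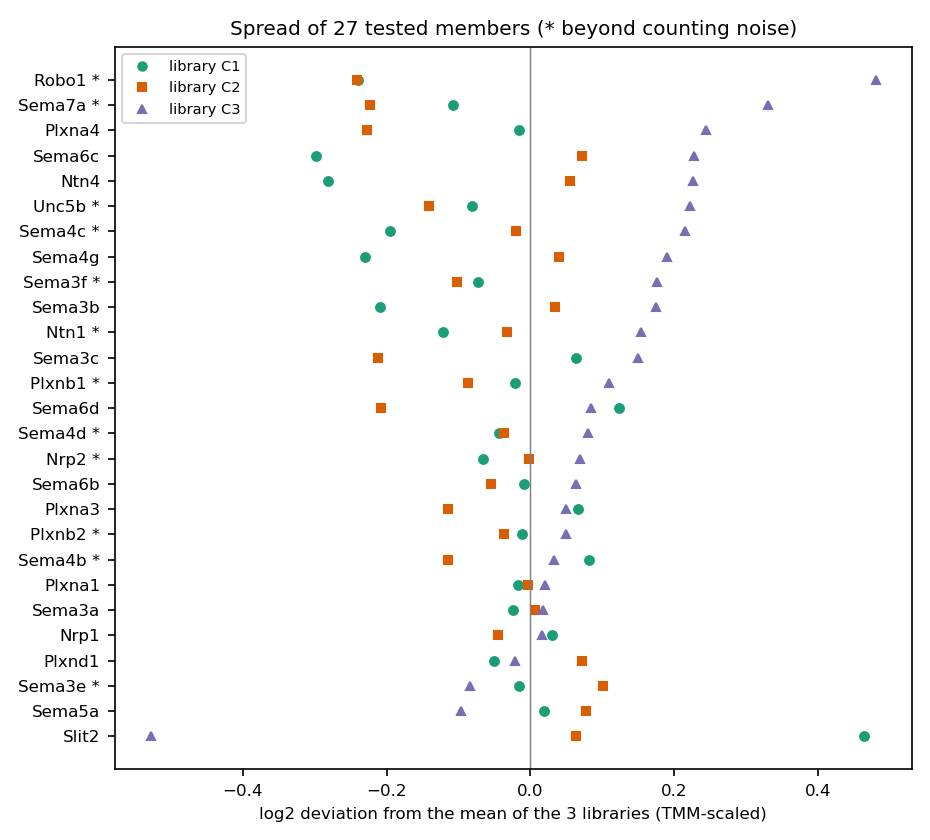
Log2 deviation of each library from the mean of the 3 for the 27 tested members, after TMM scaling; asterisks mark the 12 beyond counting noise in the Poisson dispersion test. C3 lies to the right for most marked members, Sema3e lies to the left, and the wide points of Slit2 rest on 43 counts.

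Other genes of the guidance pathways were measured with the members: effectors, partners, processing proteases, and further ligands and receptors. They were set in 5 lists by pathway, with earlier results of these data known, and numbered 98 genes. Of these 75 were at 1 CPM or more in every library, beside 33.8% of all rows and 62.2% of rows with a count. In the Poisson dispersion test 40 of 77 tested were called (28 highest and 7 lowest in C3), beside 39.3% of all genes, of which 41.1% were highest and 37.8% lowest in C3. The share called over all genes depended on level: 49.3% at a mean of 10 CPM or more and 14.8% below it. The lists were not split by level. The F test of edgeR called none of the 77, beside 0.0691% of all genes. The list of plexin effectors had 28 of 33 detected, with a median log2(CPM + 1) of 5.34. Per kilobase it was led by the actin-severing protein Cfl1 (414 ± 11.8 CPM per kb), the GTPases Rac1 (107 ± 1.2) and Rap1b (77.8 ± 1.09), the last a substrate of plexins, and Rhoa (66.1 ± 0.993). The exchange factors that B-type plexins recruit were both present: Arhgef12 stood at 119, 129 and 135 CPM and Arhgef11 at 43.4, 42.9 and 45.5 CPM. Of the CRMP proteins that relay Sema3a, Dpysl2 stood at 23.7, 24.7 and 25.3 CPM, Dpysl5 had 38 counts in all, and Crmp1, Dpysl3 and Dpysl4 had none. Of the MICAL oxidases Mical2 (33.5 ± 2.00 CPM) and Mical3 (26.3 ± 1.67 CPM) were detected, and Mical1 had 4 counts.

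Among the partners of plexins and neuropilins 10 of 16 were detected, a share near the 62.2% of rows with a count. The receptor kinase Met, which associates with B-type plexins, stood at 313, 331 and 297 CPM, and Erbb2, another such partner, at 58.5, 58.2 and 64.1 CPM. Of the VEGF receptors that pair with neuropilins, Kdr had 2 counts and Flt4 none, while Flt1 stood at 34.3, 37.3 and 38.7 CPM. The neuropilin ligand Vegfb was at 24.4 ± 1.31 CPM per kb, Vegfa at 11.3 ± 1.40 and Vegfc at 4.71 ± 1.07. Cd72 and Timd2, alternative receptors of class 4 semaphorins on immune cells, had 27 and 0 counts. Of the 7 proteases that cut semaphorins 6 were detected, beside the same 62.2%. Furin, which processes class 3 semaphorins, stood at 104, 98.1 and 114 CPM and Pcsk5 had 0 counts. Adam10 led this list at 33.2 ± 2.43 CPM per kb, followed by Mmp14, Adam17 and Furin.

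Of 20 genes of the slit and robo pathway 18 were detected, beside 62.2% of rows with a count. Cap1 (88.9 ± 5.83 CPM per kb), Gpc1 (51.1 ± 3.43), a heparan sulfate proteoglycan that binds slits, Pak2 (46.9 ± 0.344) and Sdc1 (43.7 ± 4.36) were the highest. Of the GTPase-activating proteins that bind robos, Srgap2 stood at 80.8, 83.4 and 79.0 CPM and Srgap3 at 27.1, 27.1 and 32.4 CPM, whereas Srgap1 had 1 count. Most of these genes act in other pathways too. Of 22 netrin pathway genes 13 were detected, a share near that 62.2%. They were led by Maged1 (50.8 ± 2.48 CPM per kb), Pitpna (39.1 ± 0.795), the focal adhesion kinase Ptk2 (23.2 ± 0.533) and Src (22.9 ± 1.07). Dscam and Ntng1 had 0 counts. Flrt3, a ligand of Unc5b, stood at 11.5, 11.1 and 13.2 CPM, and Flrt2 had 35 counts.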

How the data were processed

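Messenger RNA of 3 libraries of WISP2 over-expressing 4T1 cells was sequenced after poly(A) selection with a stranded kit, per the labels' protocols. The authors deposited 1 table of raw read counts per gene symbol; the values are whole numbers with a different total in each library. The submitters' processing notes list STAR, HTSeq, BWA, CASAVA 1.7 and build mm9 without a role or order. Which annotation, strand setting and rule for reads matching several genes was used is not stated, so genes with overlapping or antisense partners have uncertain levels. The column names do not tell which sample each holds, and all were taken as the 1 group.

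CPM was each count over the library total. Exon-union lengths came from GENCODE M21, on another build than mm9, so they served for length only and matched 31490 of 34591 symbols (91.0%), all 45 members among them. Ratios between genes added 0.5 counts; genes under 30 counts in all were given as ratios of summed counts. Intervals are exact 95% binomial and the limit for a gene without counts is 3 counts; both cover counting error only. Spread was tested with edgeR 4.0.16 (R 4.3.3, limma 3.58.1), TMM scaling, filterByExpr and an intercept-only model: a chi-square test of Poisson dispersion on 2 degrees of freedom, and the quasi-likelihood dispersion against its trended prior (F test), each with Benjamini-Hochberg adjustment over 13026 genes. Both were also run on simulated data, and the outcome is not reported here. Named are all members, the genes of the preset pairs, and the most abundant genes and those at 0 in each pathway list. A few genes of interest outside this rule (Dpysl2, Mical2, Srgap2, Flrt3 and others) were chosen after their values were seen. Arhgap35, Draxin and Map2 were read under the table's symbols Grlf1, 2610109H07Rik and Mtap2. The members and lists were chosen with earlier results of these data known. Alternatives covered scaling (DESeq2 1.42.0 size factors, total counts), filter, prior, threshold, length, added count and leaving out each library. One marker gene is not reported here.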

Additional observations from a re-analysis of the deposited data

How the results depend on the processing

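The 3 libraries are 1 group with no second condition, and C1, at the lowest depth, limits what can be said of members under 0.170 CPM. The number of members detected, 24, was the same under other scalings and without any library, 26 at 0.5 CPM or at 10 counts (Robo1 among them), and 19 at 2 CPM. The Poisson dispersion test called 12 members under each scaling, 13 without the low-count filter, and between 1 and 13 when a library was left out; leaving one out also lowers the counts and the degrees of freedom. The F test called 0 members in all settings (also the robust prior and each library left out) except without the filter, where it called 2. The log2 ratio of semaphorins to plexins and neuropilins was -1.83 without division by length and -1.14 by coding length, and -1.24 to -1.20 with a library left out. That of netrins to their receptors was -1.92 by coding length, and -2.56 to -2.47 with a library left out. That of slits to robos ran from -2.47 to -1.78 with a library left out. The ratio of Sema4d to Plxnb1 reversed to 0.29 by the longest transcript and to 0.65 by coding length; the lengths of the annotated transcripts make that change by construction. The number of pathway genes detected was 73 to 75 and the number of pairs with a direction 24 to 26 over the settings, while 21 of the 26 ratios moved by over 1.5 times with the choice of length. No paired analysis was possible because there is only 1 group.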
